A study of Homo sapiens with 6 samples.

Results

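Lipins and glycerolipid acyltransferases are the enzymes that carry fatty acids into phosphatidate and triacylglycerol, and 9 genes of this group were taken by name: *LPIN1*, *LPIN2*, *LPIN3*, *GPAM*, *DGAT1*, *DGAT2*, *AGPAT2*, *AGPAT3* and *AGPAT5*. A gene was measured here if the exon array held a transcript cluster (the array's unit for 1 gene) annotated with its symbol and no other. This was the case for 5 of the 9 genes, *LPIN1*, *GPAM*, *DGAT2*, *AGPAT2* and *AGPAT5*, each with 1 cluster, out of 12797 such clusters in the series. The cluster of *LPIN2* is annotated with 3 symbols and that of *LPIN3* with 2, so neither value can be assigned to the lipin alone. *DGAT1* and *AGPAT3* had no annotated cluster in the table used here, and these 4 genes were not analysed here.

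The samples were HepG2, an established human line from a hepatoblastoma that keeps many functions of hepatocytes. The 3 atorvastatin samples received 10 µM of the drug, a statin, for 24 h, and the 3 control samples received none. All 6 were grown in medium with human lipoprotein deficient serum in place of fetal bovine serum, so the controls were also deprived of lipoproteins. The wells were run in triplicate, and the study calls the samples biological replicates. Whether the wells came from separate cultures is not given in the sources used here, so the *p*-values reflect the spread among these 6 samples. Expression is given as log2 values after RMA, which corrects background and sets the arrays on a common scale, and differences are atorvastatin minus control.

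Glycerolipid synthesis starts from glycerol phosphate, which takes up a first fatty acid through GPAM and a second one through the AGPAT enzymes to give phosphatidate. Lipins remove the phosphate to give diacylglycerol, and DGAT enzymes add the last fatty acid to give triacylglycerol, which liver cells store in droplets or secrete. Statins inhibit HMG-CoA reductase, and cells short of sterol activate the SREBP transcription factors, which are known to act on genes of sterol and fatty acid synthesis.

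Of the measured members, *LPIN1*, which encodes lipin 1, was the 1 gene whose arrays did not overlap between the groups. Its log2 values were 7.93, 7.94 and 7.93 in the 3 atorvastatin arrays, against 7.13, 7.22 and 7.22 in the 3 control arrays. Every treated array was higher, and the lowest of them lay 0.70 above the highest control array. The mean was 7.93 ± 0.0088 in atorvastatin-treated and 7.19 ± 0.050 in control cells (SD, n = 3 each), a 1.67-fold difference. In bulk RNA, a change in the number of cells that express a gene and a change in RNA per cell cannot be told apart. The log2 difference was 0.74 (SE 0.092, 95% confidence interval 0.52 to 0.96). For replicate numbers 1, 2 and 3 it was 0.80, 0.72 and 0.71. Among all 12797 clusters it was the fourth largest increase, and the median difference was 0.01.

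The test with the replicate number as a block, which follows the paired design of the methods, gave an adjusted *p* = 0.535 for *LPIN1* (limma, Benjamini-Hochberg over all clusters). In that test 0% of all 12797 clusters passed the 5% threshold, with 127 at an unadjusted *p* under 0.05, and 0 of the 5 members passed. Between arrays of the same number, deviations from the group means correlated with −0.46, 0.07 and −0.56, so the values do not show this pairing. The SE of *LPIN1* was 0.092 with the block and 0.063 without it. Without the block *LPIN1* had an adjusted *p* = 0.0203 and was 1 of 4 clusters that passed, all higher, or 0.0313% of those tested. Permuting the array labels of *LPIN1* exactly (two-sided) gave *p* = 0.1, the smallest value that 3 against 3 arrays allow. Over all clusters, 4.57% had every atorvastatin array above every control array and 2.68% had every one below, compared with 1 and 0 of the 5 members.

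**Figure D1:**
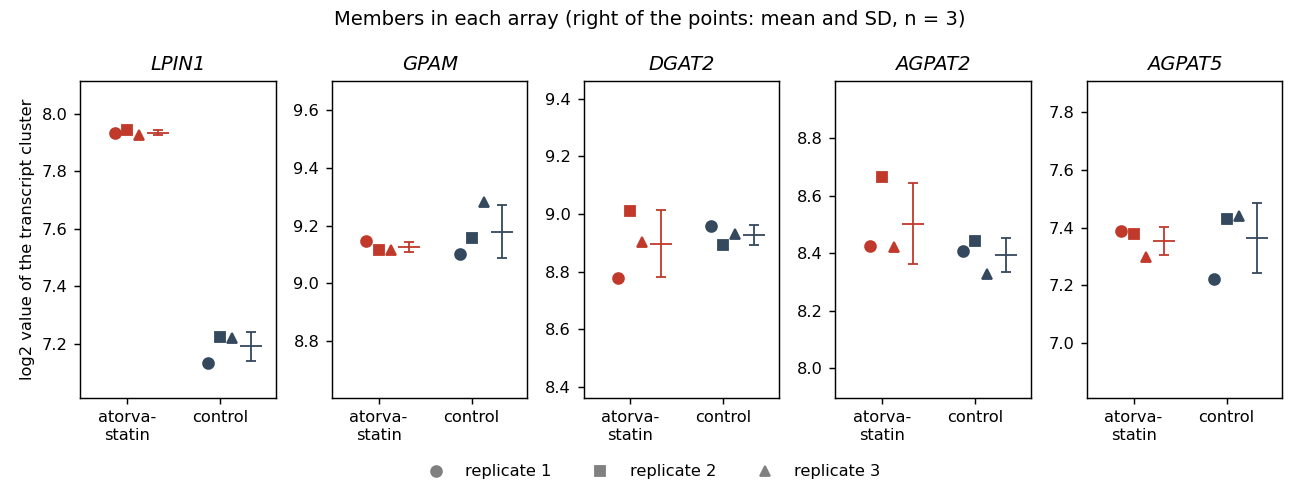
Log2 values of the 5 measured members in the 3 atorvastatin and the 3 control arrays, with the mean and SD of each group (n = 3) at the right of its points; each panel spans the same range of log2 units. For *LPIN1* the treated arrays lie at 7.93 to 7.94 and the control arrays at 7.13 to 7.22, and in the other panels the groups overlap.

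The RefSeq table used here holds 3 start sites of *LPIN1* on the plus strand of chromosome 2, and the array value is an average over the gene that does not say which of them was used. The 250 bases before each start (GRCh38.p14, 5′ to 3′) are shown because *LPIN1* is the member with separate groups. Those before the starts of *GPAM*, on the minus strand of chromosome 10, and *AGPAT2*, on the minus strand of chromosome 9, are shown because these are the other measured members in that table. Capitals mark matches to GGGCGG, the GC box bound by Sp1, on either strand. Also searched on both strands were the sterol regulatory element TCACNCCAC, the CCAAT box CCAAT and the E-box CACGTG, and none of the 4 motifs contains another.
LPIN1 at chr2:11677294-11677543: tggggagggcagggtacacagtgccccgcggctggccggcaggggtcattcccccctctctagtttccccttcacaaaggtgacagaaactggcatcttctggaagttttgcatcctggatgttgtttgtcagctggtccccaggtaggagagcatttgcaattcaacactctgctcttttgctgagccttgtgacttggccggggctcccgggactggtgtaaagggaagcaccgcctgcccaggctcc
LPIN1 at chr2:11724065-11724314: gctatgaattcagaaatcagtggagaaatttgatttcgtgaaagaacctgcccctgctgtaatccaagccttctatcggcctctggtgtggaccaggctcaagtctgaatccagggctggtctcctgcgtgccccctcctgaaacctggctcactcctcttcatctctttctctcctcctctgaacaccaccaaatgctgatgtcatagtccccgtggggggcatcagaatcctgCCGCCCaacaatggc
LPIN1 at chr2:11746382-11746631: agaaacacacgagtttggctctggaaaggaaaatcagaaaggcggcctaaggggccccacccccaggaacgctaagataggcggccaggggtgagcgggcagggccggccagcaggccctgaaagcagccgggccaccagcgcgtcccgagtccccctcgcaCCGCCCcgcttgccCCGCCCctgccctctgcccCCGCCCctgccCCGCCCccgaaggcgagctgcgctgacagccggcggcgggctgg
GPAM at chr10:112183766-112184015: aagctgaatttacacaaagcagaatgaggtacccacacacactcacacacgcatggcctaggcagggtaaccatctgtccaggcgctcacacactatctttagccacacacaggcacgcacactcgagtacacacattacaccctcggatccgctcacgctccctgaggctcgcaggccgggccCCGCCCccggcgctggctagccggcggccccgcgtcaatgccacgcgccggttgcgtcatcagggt
AGPAT2 at chr9:136687458-136687707: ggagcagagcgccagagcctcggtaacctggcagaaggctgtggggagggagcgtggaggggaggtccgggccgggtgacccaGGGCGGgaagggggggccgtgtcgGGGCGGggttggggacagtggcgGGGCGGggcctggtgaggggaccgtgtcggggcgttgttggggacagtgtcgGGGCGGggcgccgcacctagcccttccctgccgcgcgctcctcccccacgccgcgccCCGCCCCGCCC
The GC box occurred 4 times in the *LPIN1* window that starts at 11746382. It occurred 1 time in the one that starts at 11724065 and 0 times in the one that starts at 11677294. In the window of *GPAM* it occurred 1 time and in that of *AGPAT2* 6 times. It was found in 42.6% of 35116 windows of the same length. The other 3 motifs had 0 matches in these 5 windows, and they occur in 0.883% (sterol regulatory element), 32% (CCAAT box) and 6.34% (E-box) of all windows. GC content was 72.4% in the *LPIN1* window with 4 matches, 53.2% in the one with 1 and 58.4% in the one with 0. It was 62% in that of *GPAM* and 77.6% in that of *AGPAT2*, against a median of 58% over all windows. A match is a description of letters, not of binding. Likewise, 0 matches to these letters within 250 bases say nothing of variant forms of a motif or of other positions.

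*GPAM* encodes the mitochondrial acyltransferase that adds the first fatty acid to glycerol phosphate. It had log2 values of 9.15, 9.12 and 9.11 in atorvastatin arrays, against 9.10, 9.16 and 9.28 in control arrays. The treated arrays lay close together inside the control range. On the log2 scale the difference was −0.05, with an interval (95%) of −0.29 to 0.18 and an adjusted *p* = 1 in limma with the block.

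*AGPAT2* and *AGPAT5* encode acyltransferases that turn lysophosphatidate into phosphatidate. *AGPAT2*, loss of which is known to cause congenital lipodystrophy, had values of 8.42, 8.66 and 8.42 in atorvastatin arrays, against 8.41, 8.44 and 8.33 in control arrays. Treated array 2 was above all the others, and the other 2 treated arrays lay within the control range. Its difference was 0.11 (95% confidence interval −0.12 to 0.34), and without atorvastatin replicate 2 and the block it was 0.03. *AGPAT5* had values of 7.39, 7.38 and 7.30 in atorvastatin arrays, against 7.22, 7.43 and 7.44 in control arrays. The treated values lay between the lowest control array and the other 2. Its difference was −0.01 (95% confidence interval −0.26 to 0.24), and it was 0.06 without replicate 3. Both had an adjusted *p* = 1.

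*DGAT2* encodes one of the enzymes for the last step of triacylglycerol synthesis. Its values were 8.78, 9.01 and 8.90 in atorvastatin arrays, against 8.96, 8.89 and 8.93 in control arrays. Treated arrays were both the lowest and the highest of the 6. The difference was −0.03 (95% confidence interval −0.28 to 0.22, adjusted *p* = 1), and it was 0.05 without replicate 1. The intervals of these 4 genes reach from −0.29 to 0.34, so they leave room for small changes in either direction but lie below the lower bound of 0.52 for *LPIN1*.

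The difference between 2 members was also taken within each array. The log2 difference of *LPIN1* exceeded that of *GPAM* by 0.79, that of *DGAT2* by 0.77, that of *AGPAT5* by 0.75 and that of *AGPAT2* by 0.63. These 4 pairs were chosen after *LPIN1* was seen to have separate groups, so their values are a description. The exact permutation test (two-sided) gave *p* = 0.1 for each, the smallest value it can give here, and no pair could pass the threshold. *AGPAT2* and *AGPAT5*, the 1 pair of paralogs with both genes measured out of 7 pairs listed, differed in change by 0.12, with overlapping arrays (exact permutation test, two-sided, *p* = 0.4). A difference in change says nothing of the levels of 2 genes, which come from different probes.

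**Figure D2:**
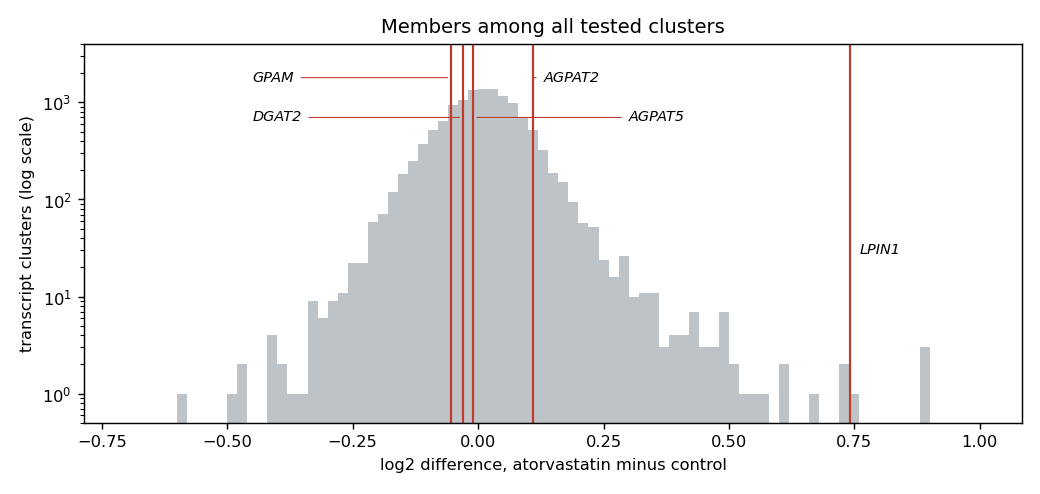
Distribution of the log2 difference, atorvastatin minus control, over the 12797 clusters with 1 gene symbol (number of clusters on a log scale), with the 5 measured members as vertical lines. *LPIN1* stands at 0.74 in the right tail, and the other members lie between −0.05 and 0.11.

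The 5 members had a median log2 difference of −0.01, against 0.01 over all clusters, with 2 higher and 3 lower on average. Over all clusters, 7146 were higher and 5651 lower. Without *LPIN1* the median of the members was −0.02. The median SD over all clusters was 0.0886 in atorvastatin and 0.114 in control arrays, and the members ranged from 0.0088 (*LPIN1*) to 0.14 (*AGPAT2*) in atorvastatin and from 0.034 (*DGAT2*) to 0.12 (*AGPAT5*) in control arrays. The SD of 0.0088 for *LPIN1* and of 0.017 for *GPAM* in treated cells was well below that median, from 3 arrays each.

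The clusters with the profile most like that of *LPIN1* were found by the root mean square distance between log2 values centred on each gene's own mean over the 6 arrays. The 5 nearest were *LSS* (lanosterol synthase, distance 0.0587), *SLC16A13* (a member of the monocarboxylate transporter family, 0.0839), *MVD* (mevalonate diphosphate decarboxylase, 0.0873), *ACSS2* (an acetyl-CoA synthetase, 0.0917) and *FDPS* (farnesyl diphosphate synthase, 0.107). The median distance from *LPIN1* over all clusters was 0.383. Their log2 differences were 0.68, 0.62, 0.74, 0.90 and 0.57, each with all treated above all control arrays. This separation follows from choosing profiles near that of *LPIN1*, whose groups lie far apart. For *LPIN1*, likeness over 6 arrays in 2 groups follows mainly the size of the difference. For *GPAM* and *DGAT2*, with differences of −0.05 and −0.03, it follows mainly the spread within the groups. The nearest to *GPAM* were *ZFP36L1* (distance 0.0159), *TNFAIP8* (0.0167) and *UIMC1* (0.017), with differences of −0.07, −0.04 and −0.04. Those nearest to *DGAT2* were *TTLL12* (0.0105), *UBE2L6* (0.0148) and *DUS1L* (0.0153), with differences of −0.03, −0.04 and −0.02. Over all clusters the median distance was 0.121 from *GPAM* and 0.121 from *DGAT2*.

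**Figure D3:**
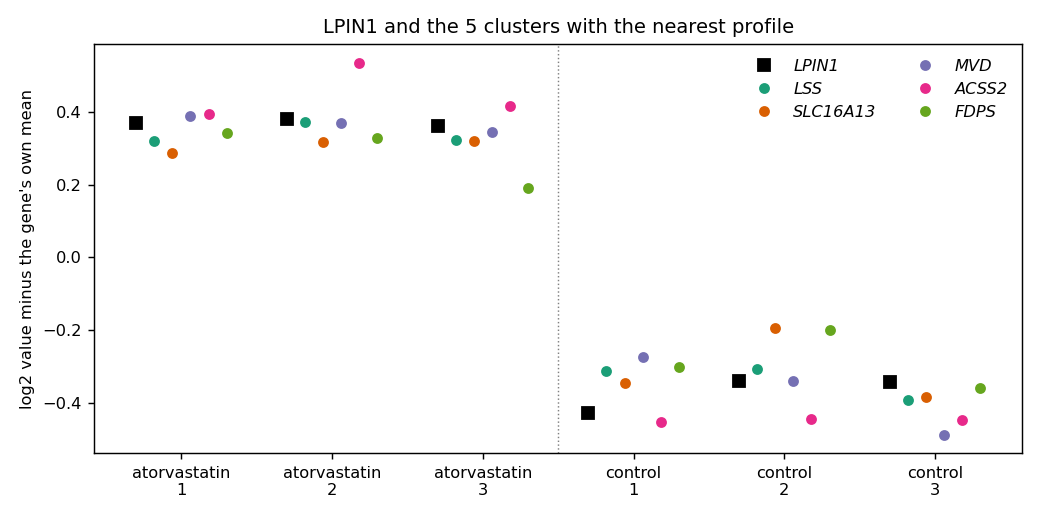
Log2 values of *LPIN1* (squares) and of its 5 nearest clusters (circles) in each of the 6 arrays, after subtracting each gene's own mean. All 6 genes lie above 0 in the atorvastatin arrays and below 0 in the control arrays, which for the 5 nearest follows from their selection.

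Other genes of the glycerolipid route had small differences. Of 15 genes for glycerol phosphate supply, the other acyltransferases and the phosphatases outside the lipins, 10 were measured, 8 were higher and 2 lower on average, with a median of 0.01 and a range of −0.05 to 0.14. None had separate groups or passed (0 of 10 with or without the block, 0 at an unadjusted *p* under 0.05 with it). Over all clusters, 4.57% had every treated array above and 2.68% every one below the controls. With the block 0% of all clusters passed, and without it 0.0313%. Counts of 0 among 10 genes are therefore near those shares and do not set this list apart. *GPAT3* and *GPAT4*, acyltransferases of the endoplasmic reticulum that act at the same step as *GPAM*, had differences of 0.14 and 0.09. *AGPAT1* had a difference of 0.10, and *MOGAT1*, a monoacylglycerol acyltransferase, of 0.06 at a mean log2 level of 3.53 in treated and 3.47 in control cells.

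Of 23 genes for phospholipid synthesis and remodelling, 18 were measured, 8 were higher and 10 lower on average, and the median was −0.01 (range −0.16 to 0.15). In 2 of the 18 every atorvastatin array was above every control array, beside 4.57% of all clusters. *PCYT1A*, the rate-limiting enzyme of phosphatidylcholine synthesis, had values of 8.01, 8.03 and 7.97 in atorvastatin arrays, against 7.79, 7.92 and 7.93 in control arrays. *LPCAT1*, a lysophosphatidylcholine acyltransferase, had 8.74, 8.95 and 8.80 in atorvastatin arrays, against 8.68, 8.74 and 8.64 in control arrays. The gaps between these groups were small, and the differences were 0.12 and 0.15. *CHPT1*, a cholinephosphotransferase that draws on diacylglycerol, had a difference of −0.16, and *CRLS1*, the cardiolipin synthase, of −0.11. None of the 18 passed with or without the block (each adjusted *p* = 1 in limma), beside 0% and 0.0313% of all clusters.

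Among genes of lipid droplets and triacylglycerol hydrolysis, 11 of 18 were measured. *PNPLA3*, a lipase and acyltransferase of lipid droplets, had the largest difference of these 11. Its values were 8.63, 8.73 and 8.58 in atorvastatin arrays, against 8.17, 8.11 and 8.20 in control arrays. All treated arrays were above all control arrays, as in 4.57% of all clusters. The difference was 0.49 (95% confidence interval 0.25 to 0.72), with an adjusted *p* = 1 with the block and 0.139 without it. *PNPLA3* passed when the variance was fitted as trended and robust, as did 0.164% of all clusters. It also passed without replicate 3, as did 0.25%. That last fit took a common variance for all clusters, so its *p* followed the size of the difference alone. The median of the 11 genes was 0.04, with 9 higher and 2 lower on average, and the next by *p* were *MGLL*, the monoacylglycerol lipase (0.15, with overlapping arrays), *PNPLA2*, the main triacylglycerol lipase (0.06), and *CIDEA*, a droplet protein (0.09).

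**Figure D4:**
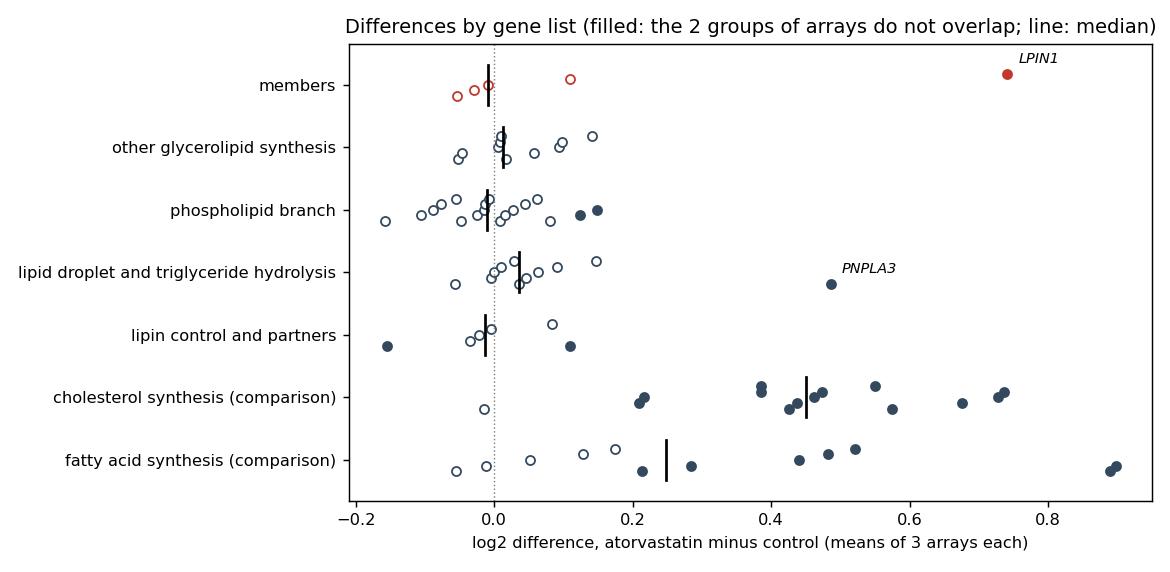
Log2 difference, atorvastatin minus control, for each measured gene of 7 lists (1 point per gene; filled points are genes whose 2 groups of arrays do not overlap; vertical lines are medians). *LPIN1* at 0.74 and *PNPLA3* at 0.49 stand apart in lists with medians of −0.01 and 0.04, and the median was 0.45 in cholesterol synthesis and 0.25 in fatty acid synthesis.

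Genes known to act on lipin 1 or on its gene were set beside it, with 6 of 7 measured, 2 higher and 4 lower on average. *PPARGC1A*, a coactivator that is known from mouse liver to raise *Lpin1*, had values of 8.12, 8.10 and 8.09 in atorvastatin arrays, against 8.15, 8.23 and 8.39 in control arrays, a difference of −0.15. *MTOR*, the kinase gene whose product phosphorylates lipin 1, had 8.45, 8.47 and 8.48 in atorvastatin arrays, against 8.25, 8.41 and 8.41 in control arrays, a difference of 0.11. Both had groups that did not overlap by a small margin. *PPARGC1A* was lower, as 2.68% of all clusters were, and *MTOR* higher, as 4.57% were. *SREBF1*, which encodes SREBP-1, had 7.97, 7.998 and 7.98 in atorvastatin arrays, against 8.05, 7.93 and 7.73 in control arrays, and these overlapped. Its difference was 0.08, and that of *CNEP1R1*, a subunit of the phosphatase that acts on lipins, was −0.03. Each had an adjusted *p* = 1 in limma with the block.

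The members were set beside both neighbouring routes of lipid synthesis. Of 14 measured genes of cholesterol synthesis, 13 had all treated above all control arrays, and of 12 of fatty acid synthesis 7 had, against 1 of the 5 members and 4.57% of all clusters. With the block, 0 genes of either list passed, as for the members and for all clusters. Without it, *MVD* and *LSS* passed in the first list and *ACSS2* in the second, beside *LPIN1* and 0.0313% of all clusters. With a trended and robust variance the counts were 8 of 14, 5 of 12 and 1 of 5, against 21 of all clusters (0.164%). A difference between these lists was not tested.

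Array medians over all clusters were 6.66 to 6.72, and any 2 arrays correlated with a coefficient of 0.99 or more. The 6 measured hepatocyte markers, *AFP*, *ALB*, *APOA1*, *APOB*, *APOH* and *FGB*, had mean log2 levels from 9.56 to 12.3. All 5 endothelial markers, 3 of 6 fibroblast, 3 of 4 adipocyte and 2 of 3 leukocyte markers were below a mean of 6, the level taken as dim. None of the 24 markers passed with or without the block, beside 0% and 0.0313% of all clusters. With so few clusters passing, this count says nothing of cell content. The part of the markers in the results was not tested. Summed over the 4 adipocyte markers, log2 levels were 20.2 to 20.8 in atorvastatin and 19.1 to 20.7 in control arrays. On average, 1 of 6 hepatocyte, 4 of 4 adipocyte and 6 of 6 fibroblast markers were higher. So were 4 of 5 endothelial and 2 of 3 leukocyte markers, beside 55.8% of all clusters. Of the hepatocyte markers *APOH* had every treated array below every control array, as had 2.68% of all clusters.

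**Figure D5:**
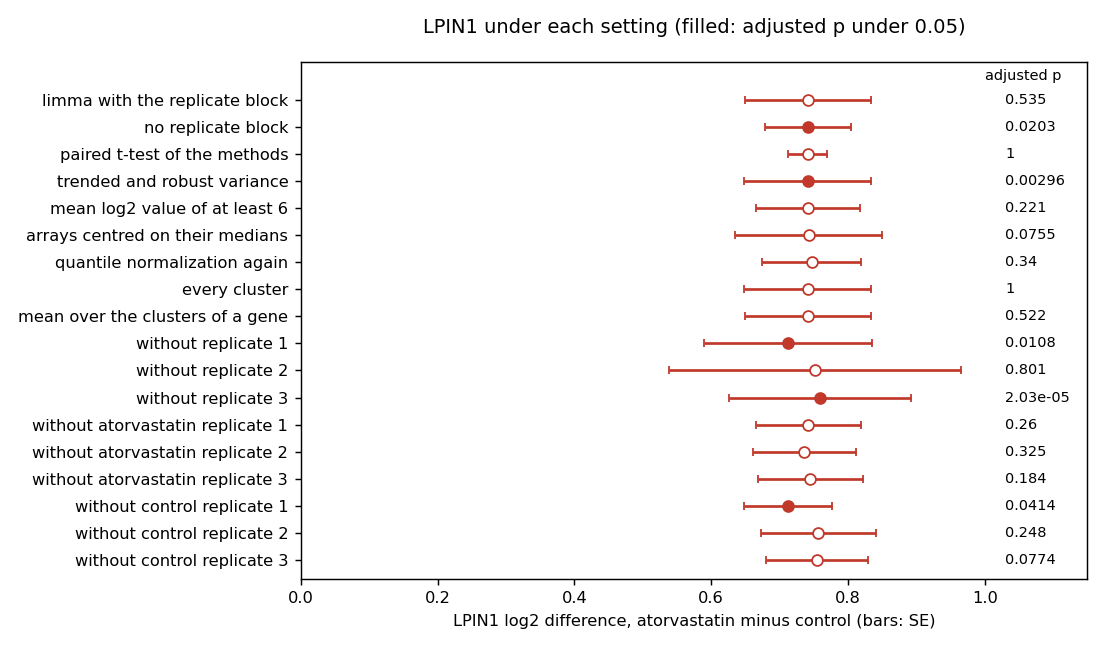
Log2 difference of *LPIN1*, atorvastatin minus control, with its SE (bars), under each of 18 settings, and the adjusted *p* of each at the right; the omissions of a single array use no replicate block. The difference lies between 0.71 and 0.76 throughout, and filled points mark the 5 alternatives with an adjusted *p* under 0.05.

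Under 17 alternatives the log2 difference of *LPIN1* was 0.71 to 0.76, and its adjusted *p* ranged from 2.03e-05 to 1 in these tests of limma and the methods' t-test. It passed in 5 of them: when the block was dropped (0.0203), when the variance was trended and robust (0.00296), when replicate 1 (0.0108) or replicate 3 (2.03e-05) was left out, and when control replicate 1 was left out without the block (0.0414). Of all clusters, 0.164% passed with the trended and robust variance. With replicate 1 left out 0.125% passed, with replicate 3 left out 0.25%, and with control replicate 1 left out 0.0469%. *LPIN1* did not pass with the methods' t-test (adjusted *p* = 1) or in the other 11, which include the omission of each other array in turn without the block (0.0774 to 0.325). Without replicate 2 or 3 the fit took 1 common variance for all clusters, so the *p* then followed the size of the difference alone.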

How the data were processed

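Gene expression was measured on GeneChip Human Exon 1.0 ST arrays in 6 samples of HepG2 cells. The authors normalized the scans by RMA in Partek Genomics Suite and took, per gene, the average over its core probe sets. The deposited table holds these averages as log2 values (1.48 to 13.05), without detection calls, and averaging hides changes in single exons. The submitters' processing notes name hg18; tool versions are not given in the sources used here. Clusters were named from the platform annotation: 12797 of 16634 carried 1 symbol and were tested, 1934 several and 1903 none. Groups were compared with limma 3.58.1 (R 4.3.3), blocking on the replicate number, with Benjamini-Hochberg adjustment at 5%. The code was tested on simulated data with independent noise in each array, which cannot show whether the block suits these arrays. Promoter windows came from RefSeq (GRCh38.p14), with 3 of the 5 measured members matched. Tables were made in Python 3.11.15. Named genes were all members, the 4 genes with the smallest *p* of each other list (not all are described) and the nearest profiles. Members and lists were chosen with earlier results of these data known. The number of arrays limits the precision.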

Additional observations from a re-analysis of the deposited data

How the results depend on the processing

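With the replicate block, 0 members and 0 of all clusters passed. Without the block (no replicate block) these counts were 1 and 4, and with a trended and robust variance 1 and 21. With replicates or single arrays left out, they ranged from 0 to 1 and from 0 to 32. The member was *LPIN1* each time. The cause was not tested. The log2 differences of *LPIN1* and *AGPAT2* kept their direction in all 17 alternatives. Leaving out replicates or arrays turned the sign of *DGAT2* (−0.10 to 0.0454), *AGPAT5* (−0.0974 to 0.0563) and *GPAM* (−0.103 to 0.00267). Deviations from the group means correlated with −0.46, 0.07 and −0.56 between arrays of the same number, so the values do not show a pairing by number. Centring shifted the median of all differences by 0.00123 and quantile normalization by −0.0106. The files hold no signal over background, so dim genes have no detection limit here.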
